A study of Mus musculus with 6 samples.

Results

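The genes described here are 39 genes of cholesterol and fatty acid synthesis, taken by name from 57180 gene identifiers. They are the SREBP factors and their regulators, the enzymes that make sterols, 2 genes of sterol transport and uptake, the enzymes that make, lengthen and desaturate fatty acids, and the 3 lipins. All 39 were matched by symbol, and all 39 were among the 17639 genes with enough counts to be tested. RNA was sequenced from primary corneal endothelial cells, the cell layer at the back of the cornea that keeps it clear. Every mouse was homozygous for the Q455K substitution of Col8a2, a collagen chain of Descemet membrane, a mutant used to model Fuchs endothelial corneal dystrophy. The 3 libraries of the Col8a2 group have no other allele listed and no treatment, and the 3 of the Tcf4+/- group also lacked, by their label, 1 working copy of Tcf4, which encodes a transcription factor of the E protein family. The labels give neither the age of the mice, nor the kind of Tcf4 allele, nor whether corneas were pooled or each library came from its own animal, and p-values therefore reflect only how far these libraries spread, which may be technical in part.

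SREBP proteins are made as precursors in the membrane of the endoplasmic reticulum. Scap carries them to the Golgi when sterols are low, where they are cut and released to the nucleus, and the Insig proteins hold Scap back when sterols are plentiful. SREBP2, from Srebf2, acts mostly on cholesterol synthesis, and SREBP1c, from Srebf1, mostly on fatty acid synthesis. Lipins are phosphatidate phosphatases on the path to triglyceride and membrane phospholipid, and lipin 1 also acts in the nucleus on transcription and on SREBP activity. In corneal endothelium, membrane lipid supports a layer of thin, tightly packed cells rich in mitochondria and ion pumps.

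Promoter stretches are shown for 4 enzymes of the sterol path, whose transcripts are described further on, and for Lpin1, which had the largest difference between groups of the 39. Each is the 200 bases before the RefSeq start site in build GRCm38.p6. Capitals mark 3 motifs searched on both strands, the sterol regulatory element TCACNCCAC, the CCAAT box and the E-box form CAGNTG, of the kind that E proteins bind. Hmgcs1 lies at chr13:119690151-119690350 on the plus strand, Idi1 at chr13:8885406-8885605 on the plus strand, Lss at chr10:76531405-76531604 on the plus strand, Msmo1 at chr8:64733579-64733778 on the minus strand and Lpin1 at chr12:16610967-16611166 on the minus strand.
Hmgcs1: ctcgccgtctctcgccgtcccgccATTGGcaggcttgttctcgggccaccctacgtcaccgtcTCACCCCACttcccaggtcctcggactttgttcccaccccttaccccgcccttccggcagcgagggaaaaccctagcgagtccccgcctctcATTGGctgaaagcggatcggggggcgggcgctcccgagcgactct
Idi1: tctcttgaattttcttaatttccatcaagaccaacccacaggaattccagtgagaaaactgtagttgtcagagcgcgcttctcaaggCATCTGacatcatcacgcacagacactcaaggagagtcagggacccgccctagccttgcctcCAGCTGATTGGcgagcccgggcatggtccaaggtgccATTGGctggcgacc
Lss: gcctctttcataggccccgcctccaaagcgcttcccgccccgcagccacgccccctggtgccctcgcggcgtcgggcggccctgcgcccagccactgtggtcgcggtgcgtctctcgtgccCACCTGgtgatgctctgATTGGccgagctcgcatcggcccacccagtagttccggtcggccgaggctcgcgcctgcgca
Msmo1: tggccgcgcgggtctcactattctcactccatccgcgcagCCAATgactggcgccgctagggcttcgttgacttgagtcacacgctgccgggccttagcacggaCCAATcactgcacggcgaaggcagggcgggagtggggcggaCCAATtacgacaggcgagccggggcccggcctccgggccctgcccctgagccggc
Lpin1: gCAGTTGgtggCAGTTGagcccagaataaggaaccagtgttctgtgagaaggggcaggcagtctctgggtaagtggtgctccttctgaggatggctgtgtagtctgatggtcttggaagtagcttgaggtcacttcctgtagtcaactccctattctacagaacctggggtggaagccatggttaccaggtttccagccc

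The Hmgcs1 stretch held the sterol regulatory element, with its leftmost base at -137 from the start site, and CCAAT boxes on its other strand. In Idi1 an E-box and a CCAAT box on the other strand adjoin without sharing a base. The Lpin1 stretch held an E-box at -199 and another at -189, and no CCAAT box as spelled. Of the 39 genes, 32 had at least 1 promoter window of 300 bases in the RefSeq table, 43 windows in all. The CCAAT box was found in 26 of these 43 windows (60.5%) and in 37.4% of 32851 windows of all genes. CAGNTG was found in 22 of 43 windows (51.2%), against 51.4% of all windows, and the sterol regulatory element in 1 of 43, against 1.24%. These matches describe the letters in the windows and were not tested for binding.

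Total estimated counts ran from 30344161 to 54265479 per library, with the lowest in Tcf4+/- replicate 3. Tcf4 was not lower in the group labelled as its knockout, at 313, 470 and 430 CPM (counts scaled to library size with TMM factors) in Col8a2 libraries against 440, 599 and 373 CPM in Tcf4+/- ones. Whether the allele removes a stretch that these counts cover is not stated, and Tcf4+/- below means the libraries labelled so. The defining endothelial transcripts Col8a2 and Slc4a11 were abundant in every library. Transcripts of other tissues were present as well. Summed keratocyte and fibroblast markers, of the stroma, were at 5935 to 12074 CPM in Col8a2 libraries against 8752 to 18095 CPM in Tcf4+/- ones. Summed photoreceptor markers were at 2717 to 4006 CPM in Col8a2 libraries against 2798 to 12103 CPM in Tcf4+/- ones. Summed lens markers stood at 33.9 to 628 CPM in Col8a2 libraries against 91.6, 4199 and 11174 CPM in Tcf4+/- replicates 1, 2 and 3. In Tcf4+/- replicates 2 and 3, mitochondrial tRNA genes took 15.6% and 15.8% of the TPM total (abundance scaled for transcript length and library), against 0% elsewhere. TPM has the same total in every library, so less of it was left for other genes in these libraries. Levels in TPM are thus not on an equal scale between the groups.

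Per length, Fdps and Srebf1 were the most abundant of the 39 genes. Fdps, which makes farnesyl diphosphate, stood at 353, 114 and 277 TPM in Col8a2 libraries against 312, 106 and 163 TPM in Tcf4+/- ones. Srebf1 stood at 107, 234 and 139 TPM and at 138, 181 and 181 TPM. Each was at the top of the 39 in 3 of 6 libraries, so their order is not settled. In GENCODE M21, Fdps shares 26.7% of its exonic bases with Gm43738 on the same strand, so its level is less certain. Scd2, a stearoyl-CoA desaturase, came next with 81.9 ± 30.4 TPM (mean ± SD over 6 libraries). Sc5d, Pmvk, Fads2, Hmgcs1, Ebp, Srebf2, Fdft1, Fads1, Mvk and Acly followed with means between 40.6 and 30.7 TPM, and with SDs from 5.31 to 18.6 TPM the order of neighbours among them is not settled. The lipin Lpin3 had the lowest mean, 2.54 TPM, below Acaca at 3.48 TPM, Hsd17b7 at 3.67 TPM and Lpin1 at 3.86 TPM.

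**Figure D1:**
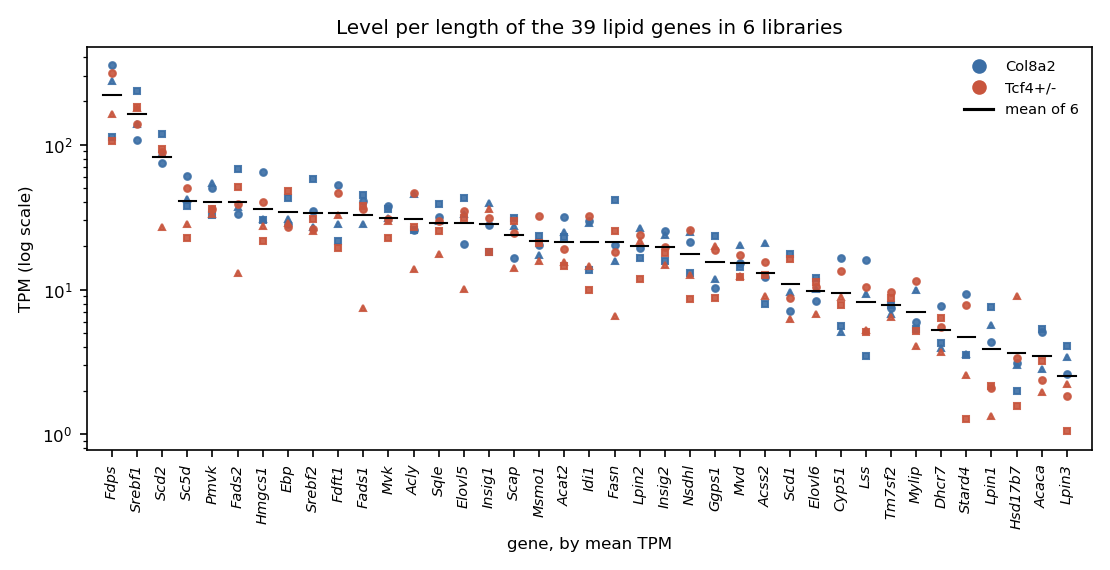
Level of each of the 39 genes in TPM on a log axis, with genes ordered by mean; points are the 6 libraries, colored by group and shaped by replicate, and the black line is their mean. Fdps and Srebf1 lie at the left with means of 221 and 163 TPM, and Lpin3 at the right with 2.54 TPM.

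Within a library, the balance of related genes can be read without scaling between libraries. Srebf1 was above Srebf2 in TPM in every library, by a ratio of 3.07, 4.07 and 5.14 in Col8a2 libraries against 5.31, 5.85 and 7.08 in Tcf4+/- libraries. These ratios did not overlap between groups, and were picked out after their values were seen. In CPM, which uses no length, the ratio was 1.30, 1.90 and 2.92 against 2.68, 3.11 and 2.52, and the groups overlapped. The estimated Srebf1 transcript length in Tcf4+/- replicate 3 was 1144 bases, against 1909 to 2358 bases elsewhere. Scd2 exceeded Scd1 in TPM by 6.75 to 10.6 times in Col8a2 libraries against 4.29 to 10.3 times in the Tcf4+/- group. Insig1 to Insig2 ran from 1.101 to 1.68 and from 1.01 to 2.42. Fads2 to Fads1, the desaturases of polyunsaturated fatty acids, ran from 0.810 to 1.51 and from 1.08 to 1.74.

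Between the groups, no member passed the test. The quasi-likelihood test of edgeR, adjusted by Benjamini-Hochberg over all genes, called 0 of 39 higher and 0 lower in the Tcf4+/- group, as it called 0% of all genes tested in either direction. At an unadjusted p under 0.05 there was 1 of 39, Lpin1, against 2.42% of all genes tested (1.42% higher and 1% lower). DESeq2 called 1 member, Lpin1, lower, where it called 0.137% of genes lower and 0.327% higher. For 4 of 39 genes the ranges of the groups were apart, against 8.1% of all genes tested. Msmo1 and Tm7sf2 lay higher in the Tcf4+/- group, where 4.53% of all genes did, and Lpin1 and Lpin3 lower, where 3.57% did. Of the 39, 26 were fitted lower and 13 higher, with a median log2 fold change of -0.14, while 49.9% of all genes were fitted lower, around a median of 0.0011. With Tcf4+/- replicates 2 and 3 left out, and the lone library of that group assumed to vary like the other group, the median of the 39 was 0.07. Lpin1 had been picked out earlier from these same data, so its p-values here are a description.

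**Figure D2:**
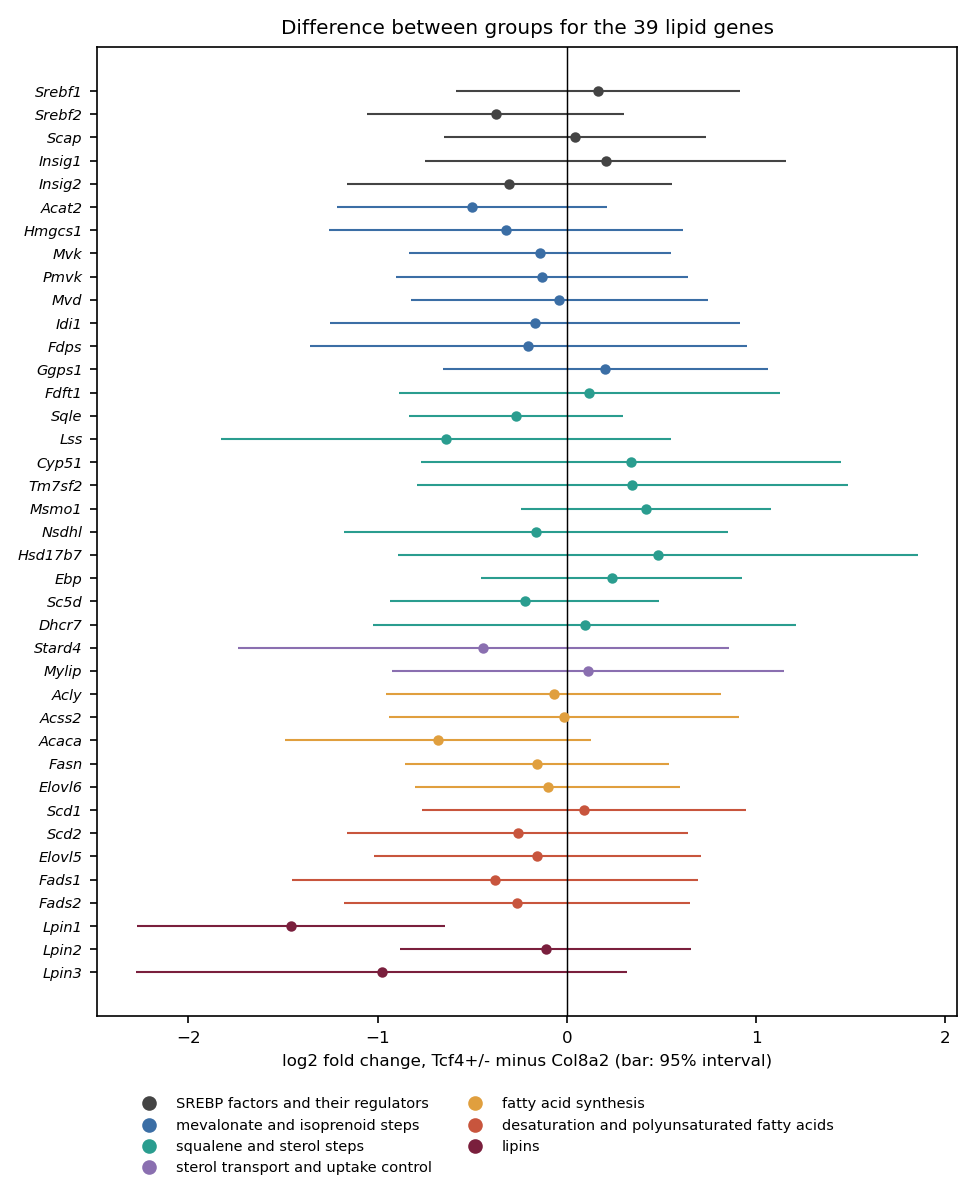
Log2 fold change of each gene, Tcf4+/- minus Col8a2, with its 95% interval as a bar, in the order and color of the roles. The intervals of 38 of 39 genes include 0, and Lpin1 lies lowest at -1.46.

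The intervals show what size of difference these libraries leave possible. Standard errors of the log2 fold change ran from 0.25 for Sqle to 0.61 for Hsd17b7, with a median of 0.39. For 14 of 39 genes the 95% interval lay within a log2 fold change of -1 to 1, and for the rest a change of that size was not left out. The lowest count of any member in any library was 168, for Lpin3.

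Among the SREBP factors and their regulators, the groups overlapped for all 5 genes. Srebf1 stood at 255 ± 69.6 CPM in Col8a2 libraries against 286 ± 71.6 CPM in Tcf4+/- libraries (mean ± SD, n = 3 each), a log2 fold change of 0.16 with an interval from -0.59 to 0.91. Srebf2 stood at 139, 168 and 91.4 CPM against 105, 116 and 86.5 CPM, a log2 fold change of -0.37 with an interval from -1.05 to 0.30. Its highest libraries were both of the Col8a2 group, and the lowest of that group lay among the others. Scap, the escort of SREBP, differed by 0.04 on the log2 scale. Insig1, itself a target of SREBP, stood at 69.2, 35.5 and 90.2 CPM against 71.4, 42.96 and 110.4 CPM, with replicate 2 lowest in each group. Insig2 had a log2 fold change of -0.30.

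The 8 genes of the mevalonate and isoprenoid steps lay around a median log2 fold change of -0.16, with 7 fitted lower and 1 higher and none under an unadjusted p of 0.05. Hmgcs1, which makes HMG-CoA and whose promoter is shown above, stood at 199, 73.1 and 86.3 CPM in Col8a2 libraries against 116, 64.1 and 107 CPM in Tcf4+/- libraries. Col8a2 replicate 1 was the highest library, and the others of both groups lay together. Acat2, the cytosolic acetoacetyl-CoA thiolase at the start of the path, stood at 48.1 ± 14.0 and 34.0 ± 5.41 CPM (mean ± SD, n = 3 each), a log2 fold change of -0.50 with an interval from -1.21 to 0.21. The kinases Mvk and Pmvk and the decarboxylase Mvd differed by -0.14, -0.13 and -0.04. Ggps1, which makes geranylgeranyl diphosphate for protein prenylation, was fitted higher by 0.20, with 21.9 and 62.4 CPM in Tcf4+/- replicates 2 and 3 on either side of the Col8a2 range of 35.004 to 39.1 CPM.

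Fdps, at the branch to sterols, and Idi1, the isomerase before it, varied more within the groups than between them. Fdps was at 364, 91.7 and 262 CPM in Col8a2 libraries against 297, 109.6 and 217 CPM in Tcf4+/- ones. Idi1 was at 69.5, 25.0 and 60.8 CPM and at 71.4, 22.5 and 44.2 CPM. In both genes replicate 2 of each group was far below the rest, and the log2 fold changes between groups were -0.20 and -0.17 with standard errors of 0.52 and 0.48. Fdps made up 41.1% and 40.7% of the summed TPM of the 19 sterol genes in Col8a2 replicates 1 and 3 and 23.3% in replicate 2. In the Tcf4+/- group its share was 41.03%, 26.1% and 33.7%.

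The 11 genes of the squalene and sterol steps lay around a median log2 fold change of 0.12, with 7 fitted higher and 4 lower. Msmo1, the methyl oxidase that removes methyl groups from the sterol ring, stood at 34.8, 30.3 and 29.1 CPM in Col8a2 libraries against 51.7, 37.4 and 36.7 CPM in Tcf4+/- libraries. The groups did not overlap, by a gap smaller than the spread within the Tcf4+/- group, and the log2 fold change was 0.42 with an interval from -0.24 to 1.08. Tm7sf2, a sterol reductase, stood at 7.22, 7.79 and 7.05 CPM against 9.57, 9.92 and 8.54 CPM, also without overlap, with a log2 fold change of 0.35 and an interval from -0.79 to 1.48. Part of its exons, 12.1% of their bases, is shared with Vps51 on the same strand in GENCODE M21, so its counts are less certain. In TPM the groups overlapped for both Msmo1 and Tm7sf2.

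Lss, which closes the sterol ring system, stood at 64.3, 13.9 and 40.5 CPM in Col8a2 libraries against 37.4, 17.8 and 20.9 CPM in Tcf4+/- libraries. Its log2 fold change of -0.64 had a standard error of 0.53, and rested on Col8a2 replicate 1, since it was -0.10 without that library. Without Col8a2 replicate 2 it was -1.05 (unadjusted p = 0.0367 in edgeR, adjusted p = 0.9999). Cyp51, the lanosterol demethylase, stood at 56.1, 16.5 and 17.4 CPM against 45.6, 27.8 and 40.4 CPM. Its log2 fold change was 0.34, and 1.16 without Col8a2 replicate 1 (unadjusted p = 0.0163 in edgeR, adjusted p = 0.9997). The groups overlapped for both genes with all libraries included.

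Fdft1, squalene synthase, stood at 143, 46.8 and 71.3 CPM against 121, 53.5 and 109 CPM, and Sqle, squalene epoxidase, at 75.9 ± 5.39 against 63.0 ± 8.37 CPM (mean ± SD, n = 3 each). Fdft1 shares 18.3% of its exonic bases with Ctsb on the opposite strand, and reads there cannot be told apart without strand. Sqle did not share the drop of Fdft1 in replicate 2 of each group, with 77.9 and 63.2 CPM there. Nsdhl and Hsd17b7, which finish the removal of the methyl groups, differed by -0.16 and 0.48, Ebp, the isomerase, by 0.24, Sc5d, the desaturase, by -0.22 and Dhcr7, the last reductase, by 0.09. The intervals of all of these included 0. Stard4, a carrier of cholesterol between membranes, stood at 18.0 ± 5.40 and 13.2 ± 8.28 CPM (mean ± SD, n = 3 each), with 4.05 CPM in Tcf4+/- replicate 2. Mylip, the ligase that marks lipoprotein receptors for breakdown and is induced by LXR, stood at 18.3 ± 6.98 and 19.8 ± 9.35 CPM.

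Many sterol genes were thus high or low together from library to library in both groups. Over the 19 genes of the mevalonate and squalene steps, the mean log2 CPM was 5.67, 4.75 and 5.26 in Col8a2 libraries against 5.48, 4.85 and 5.36 in Tcf4+/- ones. Replicate 2 was the lowest of its own group in both groups for 12 of the 19 genes (63.2%), against 13.9% of all genes tested. In 10 of them (52.6%) these were the lowest 2 of all 6 libraries, against 9.79% of all genes. Among genes tested with a mean of at least 5 CPM, these shares were 16.6% and 12.4%. Col8a2 replicate 1 was the highest library for 11 of 19. Genes measured in the same libraries are not independent of each other, and the labels give no shared litter, day or batch for a replicate number.

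**Figure D3:**
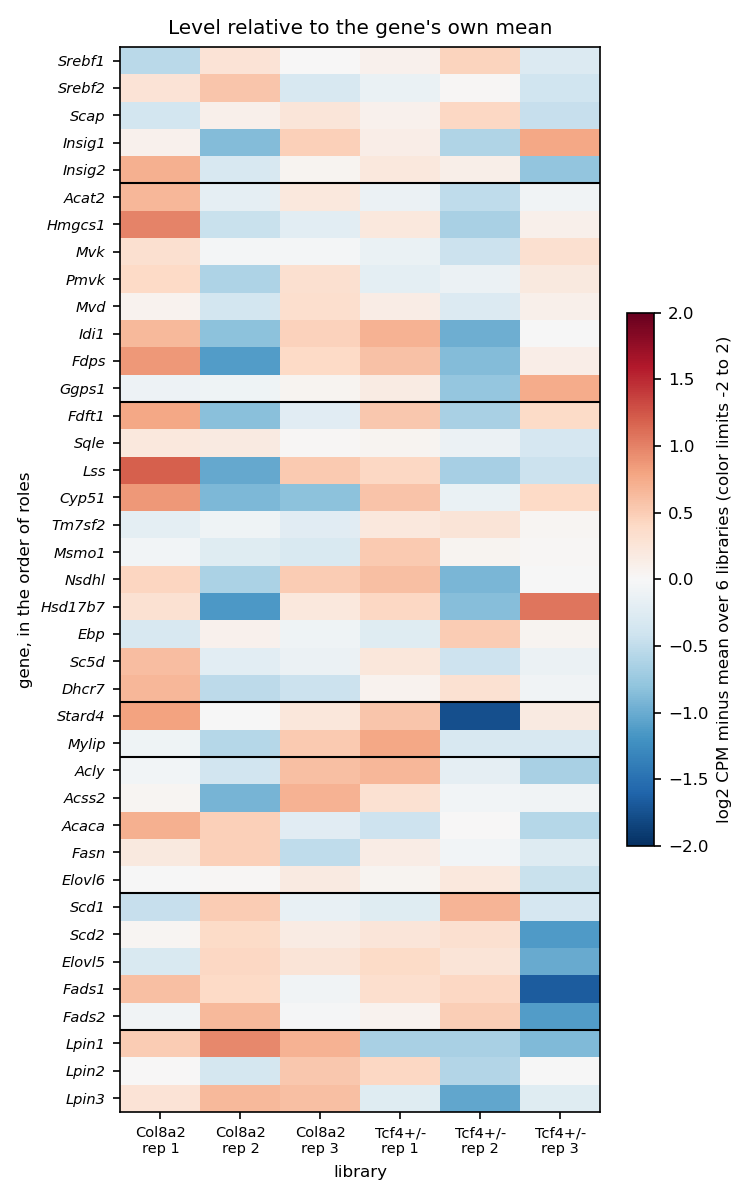
Log2 CPM of each gene minus its mean over 6 libraries, with genes as rows in the order of roles (black lines part the roles) and libraries as columns. Blue cells gather in replicate 2 of both groups among sterol genes and in Tcf4+/- replicate 3 among desaturation genes, and Lpin1 is the row with the largest difference between the groups.

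Markers of corneal epithelium, the layer at the front of the cornea, followed nearly the same order of libraries. The mean log2 CPM of 11 markers was 7.73, 5.98 and 6.45 in Col8a2 libraries against 7.03, 6.26 and 7.36 in Tcf4+/- ones. From the highest to the lowest library, the order differed from that of the sterol genes only in Tcf4+/- replicates 1 and 3. Summed, the markers ran from 5910 to 12623 CPM in Col8a2 libraries against 5091 to 11240 CPM in Tcf4+/- ones, and Krt16 alone had 0 counts in a library, Col8a2 replicate 2. Replicate 2 was the lowest of its own group in both groups for 7 of the 11 markers, among them Krt12, at 1909 and 501 CPM there and 2288 to 4585 CPM elsewhere. Krt14, Krt15, Krt16 and Krt17 did not follow, and Krt15 was highest in Tcf4+/- replicate 2, at 1195 CPM. Replicate 2 was also the lowest of each group in mean log2 CPM for the photoreceptor and erythroid lists. Photoreceptor markers stood at 7.14 in Col8a2 replicate 2 and 7.26 in Tcf4+/- replicate 2, and erythroid markers at 5.39 and 7.11. None of the remaining marker lists was lowest in replicate 2 of both groups. The part of any of these tissues in the sterol levels was not tested. In bulk libraries, fewer cells of a type and less RNA per cell cannot be told apart.

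**Figure D4:**
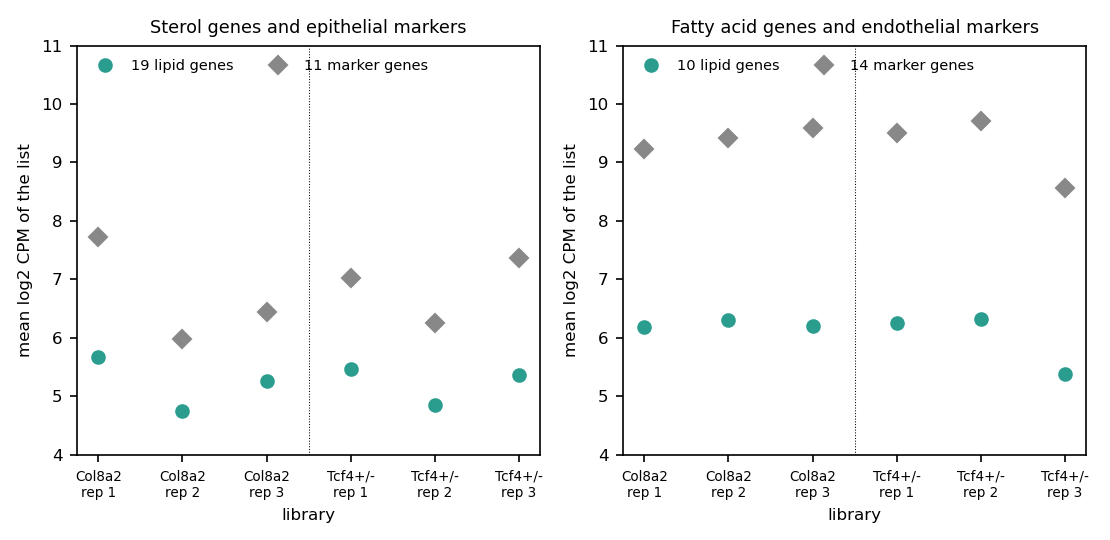
Mean log2 CPM of gene lists in each library. On the left are 19 sterol genes (circles) and 11 markers of corneal epithelium (diamonds), both lowest in replicate 2 of each group. On the right are 10 fatty acid genes and 14 markers of corneal endothelium, both lowest in Tcf4+/- replicate 3.

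The genes of fatty acid synthesis were all fitted lower, with a median log2 fold change of -0.10 over 5 genes and no p under 0.05. Of all genes tested, 49.9% were fitted lower. Under the 16 alternatives given at the end, the sign held throughout for Acaca only. It changed in 8 for Acss2, 4 for Acly, 2 for Fasn and 1 for Elovl6. Acaca, acetyl-CoA carboxylase, which makes malonyl-CoA, stood at 44.4, 37.6 and 23.1 CPM in Col8a2 libraries against 20.2, 27.1 and 18.2 CPM in Tcf4+/- libraries. Only Tcf4+/- replicate 2 and Col8a2 replicate 3 crossed, and the log2 fold change was -0.68 with an interval from -1.49 to 0.13. Without Col8a2 replicate 3 it was -0.91 (unadjusted p = 0.0377 in edgeR, adjusted p = 0.9999), and without Col8a2 replicate 1 it was -0.48 (unadjusted p = 0.269). Fasn, the fatty acid synthase that uses malonyl-CoA, stood at 103 ± 33.5 and 91.8 ± 12.8 CPM (mean ± SD, n = 3 each). Acly, which splits citrate to cytosolic acetyl-CoA, stood at 103, 81.3 and 162 CPM against 168, 94.0 and 67.7 CPM, and Acss2, which makes acetyl-CoA from acetate, at 33.8 ± 17.5 and 33.5 ± 5.27 CPM. Elovl6, which lengthens palmitate, differed by -0.10.

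The desaturation genes were set apart by 1 library. Scd2 stood at 391, 491 and 422 CPM in Col8a2 libraries against 445, 471 and 173 CPM in Tcf4+/- ones. Fads1, the delta-5 desaturase, stood at 128, 111 and 80.3 CPM against 107, 113 and 26.7 CPM. Fads2, the delta-6 desaturase, stood at 97.1, 159 and 99.7 CPM against 107, 143 and 47.0 CPM, and Elovl5, the elongase of the same path, at 52.4, 86.5 and 77.6 CPM against 84.2, 77.8 and 32.2 CPM. Tcf4+/- replicate 3 was the lowest of 6 libraries for these 4 of 5 genes, and for 22.6% of all genes tested. Among genes tested with a mean of at least 5 CPM it was lowest for 27.6%. Scd1, the exception, was lowest in Col8a2 replicate 1, at 32.6 CPM, and stood at 35.5 CPM in Tcf4+/- replicate 3.

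With all libraries Scd2, Elovl5, Fads1 and Fads2 were fitted lower, by -0.26, -0.16, -0.38 and -0.26. Without Tcf4+/- replicate 3 the values were 0.07, 0.16, 0.03 and 0.07, so the direction rested on that library. The list of corneal endothelium markers was lowest there too, with a mean log2 CPM of 8.56 against 9.23 to 9.70 in the other libraries. Its summed level was 14065 CPM against 18794 to 28400 CPM. Not every marker followed, since Slc4a11, Car3, Ptgds, Tjp1, Foxc1 and Prdx6 were lowest in another library. Slc4a11 stood at 3046 CPM in Tcf4+/- replicate 3 and at 2283 CPM in Col8a2 replicate 2. By mean log2 CPM, the lens and photoreceptor lists were highest in Tcf4+/- replicate 3. What part these play in the desaturation genes was not tested. Adipocytes are a cell type rich in desaturases and Fasn. Of 9 adipocyte markers, Fabp4 and Cfd had the highest mean TPM, 7.39 and 3.07. Plin4 stood at 16.8, 19.6 and 2.25 CPM in Col8a2 libraries against 7.10, 5.67 and 2.60 CPM in Tcf4+/- ones. Lep and Plin1 had 0 counts in all libraries. The summed level of the 9 markers was 4.41 to 36.9 CPM in Col8a2 libraries against 8.30 to 16.0 CPM in Tcf4+/- libraries.

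Lpin1 had the largest difference of the 39 genes and had been picked out from these same data earlier for its small p, so its values are a description. It stood at 23.0, 31.6 and 26.2 CPM in Col8a2 libraries against 10.3, 10.3 and 8.81 CPM in Tcf4+/- libraries. Each Tcf4+/- library lay below each Col8a2 library, and the lowest of the Col8a2 group was well above the highest of the other. The log2 fold change of -1.46 had a standard error of 0.36 and an interval from -2.27 to -0.64, a fold of 0.364. By unadjusted p it was number 17 of 17639 genes. The adjusted p was 0.99988 in edgeR and 0.00145 in DESeq2. Each library left out in turn gave a value between -1.56 and -1.33.

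**Figure D5:**
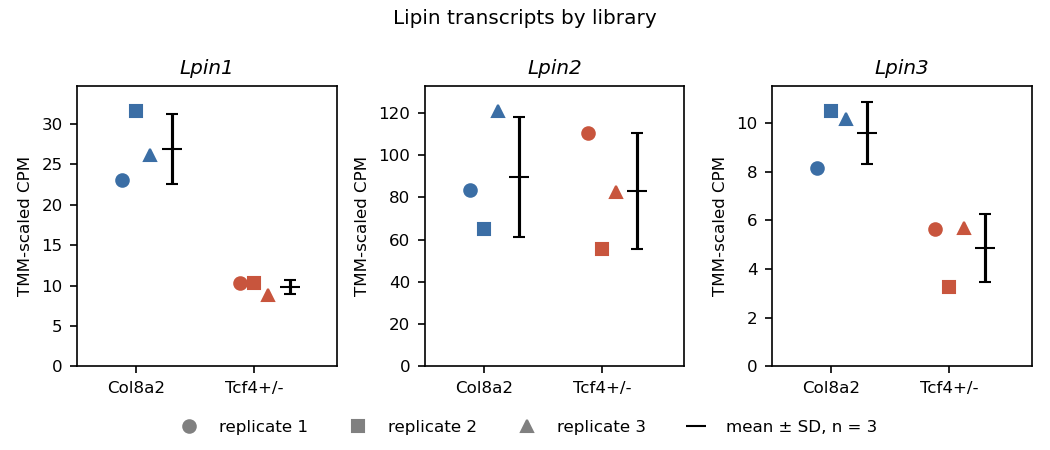
TMM-scaled CPM of the 3 lipins on axes from 0; points are libraries, shaped by replicate, and the black mark and bar give the mean ± SD (n = 3). Lpin1 and Lpin3 part the groups, at 23.0 to 31.6 against 8.81 to 10.3 CPM and at 8.14 to 10.5 against 3.27 to 5.67 CPM, and Lpin2 does not.

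The other lipins differed from Lpin1 in level and in spread. Lpin2 stood at 83.3, 64.9 and 121 CPM in Col8a2 libraries against 111, 55.7 and 82.6 CPM in Tcf4+/- libraries, with a log2 fold change of -0.11 and an interval from -0.88 to 0.66. Lpin3 stood at 8.14, 10.5 and 10.2 CPM against 5.66, 3.27 and 5.67 CPM, without overlap, with a log2 fold change of -0.98 and an interval from -2.28 to 0.32 that includes 0 (edgeR unadjusted p = 0.122). In TPM, Lpin1 made up 16.5%, 26.7% and 16.0% of the 3 lipins in Col8a2 libraries against 7.49%, 14.5% and 5.34% in Tcf4+/- libraries. The share did not overlap between groups, by a small gap of 14.5% against 16.0%, and Lpin2 held most of the rest, from 58.9% to 85.9%. The share depends on estimated length, which in Tcf4+/- replicate 3 was 3316 bases for Lpin2 and 2260 for Lpin3. In the other libraries it was 4554 to 5197 and 3365 to 3458 bases. The Lpin1 counts were whole numbers in every library.

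Transcripts of some other tissues were mostly fitted higher in the Tcf4+/- group. For 5 of 10 skeletal muscle markers the groups did not overlap and the Tcf4+/- group was higher, against 4.53% of all genes tested. The summed level of the 10 was 23.5, 154 and 48.3 CPM in Col8a2 libraries against 181, 338 and 123 CPM in Tcf4+/- ones. Myh2, of the same list, was fitted lower, at -1.58, with 36.9 CPM in Col8a2 replicate 2. Ckm, the muscle creatine kinase, had from 2 to 2362 counts. All 12 lens markers tested, all 10 photoreceptor markers and all 5 erythroid markers tested were fitted higher, with medians of 4.15, 1.05 and 1.56 on the log2 scale. The groups were without overlap for only 1, 1 and 0 of these. The medians of the endothelial, epithelial, keratocyte, myeloid, pigment cell, Schwann cell and adipocyte lists were -0.09, -0.14, 0.38, 0.21, 0.10, 0.09 and -0.71, and 0 of their genes had an unadjusted p under 0.05 in edgeR. The part of these tissues in the level of Lpin1 was not tested.

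The pathway around these genes was covered by 71 further genes, of which 70 were tested and 0 were called by edgeR. None had an unadjusted p under 0.05, and 43 were fitted lower and 27 higher, with a median of -0.12, where 49.9% of all genes were fitted lower. Groups did not overlap for 4 of 70 genes, all lower in the Tcf4+/- group, against 8.1% of all genes in either direction and 3.57% lower. Tcf4+/- replicate 3 was the lowest library for 31 of the 70 genes (44.3%), against 22.6% of all genes and 27.6% of those with a mean of at least 5 CPM. The mean log2 CPM of the 70 was 4.71 there against 5.16 to 5.45 in the others. Coq2, which joins the isoprenoid tail to ubiquinone, had the smallest p, with 66.7 ± 8.18 CPM in Col8a2 libraries against 44.1 ± 7.98 CPM in Tcf4+/- libraries (mean ± SD, n = 3 each), a log2 fold change of -0.60 (edgeR unadjusted p = 0.0542).

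Gpam, the acyltransferase that starts glycerolipid synthesis upstream of the lipins, stood at 24.8, 36.8 and 24.9 CPM against 15.5, 22.6 and 19.4 CPM, a log2 fold change of -0.59 with an interval from -1.37 to 0.19. Cnep1r1, a subunit of the phosphatase that acts on lipins, stood at 42.9, 48.1 and 44.3 CPM against 40.8, 40.9 and 13.0 CPM. For Ctdnep1, of the same phosphatase, the groups overlapped, at -0.38. Nfyc, a subunit of the factor that binds CCAAT boxes, stood at 47.5 ± 1.71 against 36.4 ± 7.14 CPM (mean ± SD, n = 3 each). For Nfya and Nfyb, of the same factor, the groups overlapped, at 0.58 and -0.13. Cnep1r1 and Nfyc, with these partners, lie outside the naming rule and were added after their values were seen. Sp1, a partner of SREBP, overlapped between groups at -0.58. On the higher side by p were Elovl4, an elongase of very long chains, at 0.65, with 122 CPM in Tcf4+/- replicate 3 and 27.5 to 51.1 CPM elsewhere, then Hacd2 at 0.34 and Cyp27a1, the sterol 27-hydroxylase, at 0.46.

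Transcript length, as the authors' estimate weights it, differed between libraries for some members. For Fasn it was 5604, 4250 and 4807 bases in Col8a2 libraries against 6346, 3947 and 10050 bases in Tcf4+/- ones. Its level in Tcf4+/- replicate 3 was thus 6.61 TPM, the lowest of 6, where in CPM Col8a2 replicate 3 was lowest. For Srebf1 the length was 1909 to 2315 bases in Col8a2 libraries against 1144 to 2358 bases in Tcf4+/- ones, and for Hsd17b7 3241 to 4612 and 2158 to 4612 bases. The lowest of these for Srebf1 and Hsd17b7 were in Tcf4+/- replicate 3. For Lpin1 it was 5235 to 5581 and 5205 to 5581 bases, and in TPM its groups did not overlap either, at 4.32 to 7.53 and 1.34 to 2.16 TPM. Values of Scd1, Fdps, Fdft1, Acat2, Scap and Srebf1 were not whole numbers in 6 of 6 libraries, as reads shared with other genes were divided.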

How the data were processed

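RNA-seq of 6 libraries was used, in 2 groups taken from their titles. cDNA came from the SMART-Seq HT Kit and libraries from Nextera XT, per the labels' protocols, which name no step that keeps strand. FastQC 0.12.1, fastp 0.23.2, STAR, RSEM, DESeq2 and build GRCm39 are named in the submitters' processing notes, without versions for the last 3 tools. The authors deposited expected counts (9.97% not whole, not scaled to depth), TPM, which is scaled to length, and lengths in bases.

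Symbols came from GENCODE M21 (51884 of 57180 identifiers matched). Because its build differs, it was used only for names, for exons shared between genes and to check promoter windows. Expected counts were rounded, filtered with filterByExpr, scaled by TMM and tested with edgeR 4.0.16 in R 4.3.3 (quasi-likelihood, robust, group as the only term, threshold 0.05). DESeq2 1.42.0 and limma 3.58.1 gave alternatives. Mean log2 CPM of lists used a prior count of 2. With 3 against 3 an exact permutation test cannot go below p = 0.1. Scripts were tested on simulated data.

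Members and lists were chosen with earlier results of these data known. All 39 members are reported. Of the further pathway genes, the 3 of smallest p in each direction are named. Promoters are RefSeq sequences in GRCm38.p6, and for 38 of 43 windows, not that of Hmgcs1, the transcribed end was found in a GENCODE transcript of the gene. In GENCODE M21, 13 of 39 members share exonic bases with another gene. Without strand, reads there cannot be told apart where the genes lie on opposite strands. Where both lie on the same strand, as for Fdps and Tm7sf2, strand would not part them either.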

Additional observations from a re-analysis of the deposited data

How the results depend on the processing

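Each result was recomputed under 16 alternatives. Of all genes tested, edgeR called 0 in the reported fit, DESeq2 105, limma voom 0, and fits without 1 library 0 to 4, with 4 without Col8a2 replicate 3. Of the 39 lipid genes 0 were called, except 1 by DESeq2, Lpin1. An unadjusted p under 0.05 was found for 1, and for 2 with DESeq2 (Lpin1 and Lpin3). Without 1 library the number was 1 to 2, where Cyp51, Lss and Acaca joined Lpin1 without Col8a2 replicates 1, 2 and 3. Across alternatives Lpin1 lay between -1.60 and -1.25 on the log2 scale, with adjusted p from 0.00145 (DESeq2) to 1.

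The median of the lipid genes, -0.14, was -0.35 to -0.03 without 1 library (lowest without Tcf4+/- replicate 1, nearest 0 without Tcf4+/- replicate 2). It was -0.28 and -0.29 with log2(TPM + 1) and log2(TPM + 0.1), where the median of all genes moved to -0.15 and -0.18, and 0.07 without Tcf4+/- replicates 2 and 3. The sign of the fold change held under all 16 for 10 of 39 genes. Over all genes tested, deviations from the group means correlated by -0.02, 0.14 and -0.02 for replicate numbers 1, 2 and 3. For unlike numbers the correlations ran from -0.09 to 0.09. The value for number 2 was the highest, so a weak link for that number was not left out. With the replicate block, edgeR called 0 genes and the median was -0.12.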
